A study of Rattus norvegicus with 10 samples.

Results

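The genes described here are the Rab GTPases of rat prefrontal cortex other than Rab3a, Rab3b, Rab3c and Rab3d. Members were the rows of the deposited RNA-seq table whose symbol is Rab followed by a number, with at most a letter and further digits after it, which left out the Rab3 group of 4 genes. This gave 49 of the 16041 rows of the table. The early life stress (ELS) group was 5 male Sprague-Dawley rats kept under limited nesting, with little nest material for dam and pups, from postnatal day 2 to postnatal day 9. The control group was 5 male Sprague-Dawley rats without that treatment. All tissue was taken at postnatal day 91, long after the stress, and each library came from 1 tissue sample. No litter is named in the labels, so a p-value here speaks only of sample-to-sample spread.

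Rab proteins are small GTPases that mark the membranes of the secretory and endocytic routes. An exchange factor (GEF) loads a Rab with GTP on its membrane, where it recruits effectors such as tethers, motor adaptors and sorting complexes. A GTPase-activating protein (GAP) ends the signal, and the lipid-anchored protein is then carried back through the cytosol. In neurons these routes supply axons and dendrites, recycle receptors at synapses and release neuropeptides from dense-core vesicles. Each member was placed in 1 role from textbook knowledge, although several Rabs act at more than 1 place. There were 13 genes of early and recycling endosomes, 8 of late endosomes and lysosomes, 9 of secretory carriers, 14 of the endoplasmic reticulum (ER) and Golgi, and 5 others.

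Levels are in RPKM, a read count per gene length and per library size, which allows comparison between genes. A fold change is the ELS mean minus the control mean of log2(RPKM + 0.1), which understates the change of low genes. It is given with its standard error (SE) and with a limma p adjusted over all genes tested. Library totals ran from 18838898 to 22311136 reads. The cortical excitatory neuron marker Slc17a7, a vesicular glutamate transporter, was at 382 to 415 RPKM in ELS and 352 to 427 RPKM in control libraries. Control replicate 4 held the highest or lowest value of its group in 61.9% of the 14642 genes tested and ELS replicate 2 in 51.3%, against 28.2% to 44.0% for the other 8 libraries. Values without either or both of these libraries are given for many of the results that they change. The tissue was bulk, so fewer cells of a type and less RNA per cell cannot be told apart. Myelin markers had lower means in ELS in 12 of 12 genes. Their summed level was 880 to 1148 RPKM in ELS and 1170 to 2392 RPKM in controls. Astrocyte markers had lower means in 10 of 10 genes, with a sum of 1114 to 1250 RPKM in ELS and 1279 to 1521 RPKM in controls. Excitatory neuron markers had higher means in 8 of 10 genes, with a sum of 2082 to 2415 RPKM in ELS and 1915 to 2180 RPKM in controls. Means were also lower in ELS in 7 of 7 oligodendrocyte precursor markers (summed 59.9 to 71.4 RPKM in ELS, 73.0 to 96.7 RPKM in controls) and in 9 of 9 microglial markers (93.6 to 111 RPKM in ELS, 106 to 124 RPKM in controls). Erythroid markers had the lowest median log2 fold change of the marker lists, -1.06, with lower means in 4 of 5 genes and a sum of 214 to 439 RPKM in ELS and 412 to 982 RPKM in controls. Inhibitory neuron markers had higher means in 7 of 8 genes (344 to 387 RPKM in ELS, 197 to 373 RPKM in controls), and endothelial and pericyte markers lower means in 8 of 8 (87.0 to 98.2 RPKM in ELS, 79.6 to 105 RPKM in controls). None of these markers was at 0 in any library. Control replicate 4 alone set the myelin sum of 2392 RPKM (other controls 1170 to 1493 RPKM) and the inhibitory sum of 197 RPKM (others 301 to 373 RPKM). Its choroid plexus markers summed to 33.1 RPKM, against 2.63 to 5.01 RPKM in other controls and 2.81 to 4.12 RPKM in ELS. Striatal markers summed to 49.1 RPKM in it, 201 RPKM in control replicate 1, 95.5 to 116 RPKM in the other controls and 97.8 to 110 RPKM in ELS. The part of cell composition in the results on Rab genes was not tested.

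The family was led by Golgi Rabs. Rab6b, the brain-enriched Rab6 isoform, was the highest member with a mean of 209 RPKM over the 10 libraries. Rab6a, which directs carriers at the Golgi, followed with 173 RPKM, then Rab2a of the ER-to-Golgi route with 124 RPKM and Rab11b of the recycling endosome with 102 RPKM. Next came Rab1a, which acts in ER-to-Golgi transport, with 80.3 RPKM and Rab7a of the late endosome with 74.6 RPKM. The rank of Rab2a rests on a short recovered gene length of 621 bases with 1408 to 1985 reads. For Rab11b the length was 1632 bases, with 3173 to 3658 reads. At the low end, Rab32, Rab37 and Rab44 had means under 1 RPKM. Rab37 was at 0.122 to 0.360 RPKM in ELS and 0.286 to 0.730 RPKM in control libraries, on 3 to 20 reads. Rab44 was at 0.196 to 0.400 RPKM in ELS and 0.226 to 0.442 RPKM in controls, on 8 to 19 reads. These 2 genes missed the filter of 0.5 RPKM in at least 5 libraries and were not tested, which left 47 members.

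**Figure D1:**
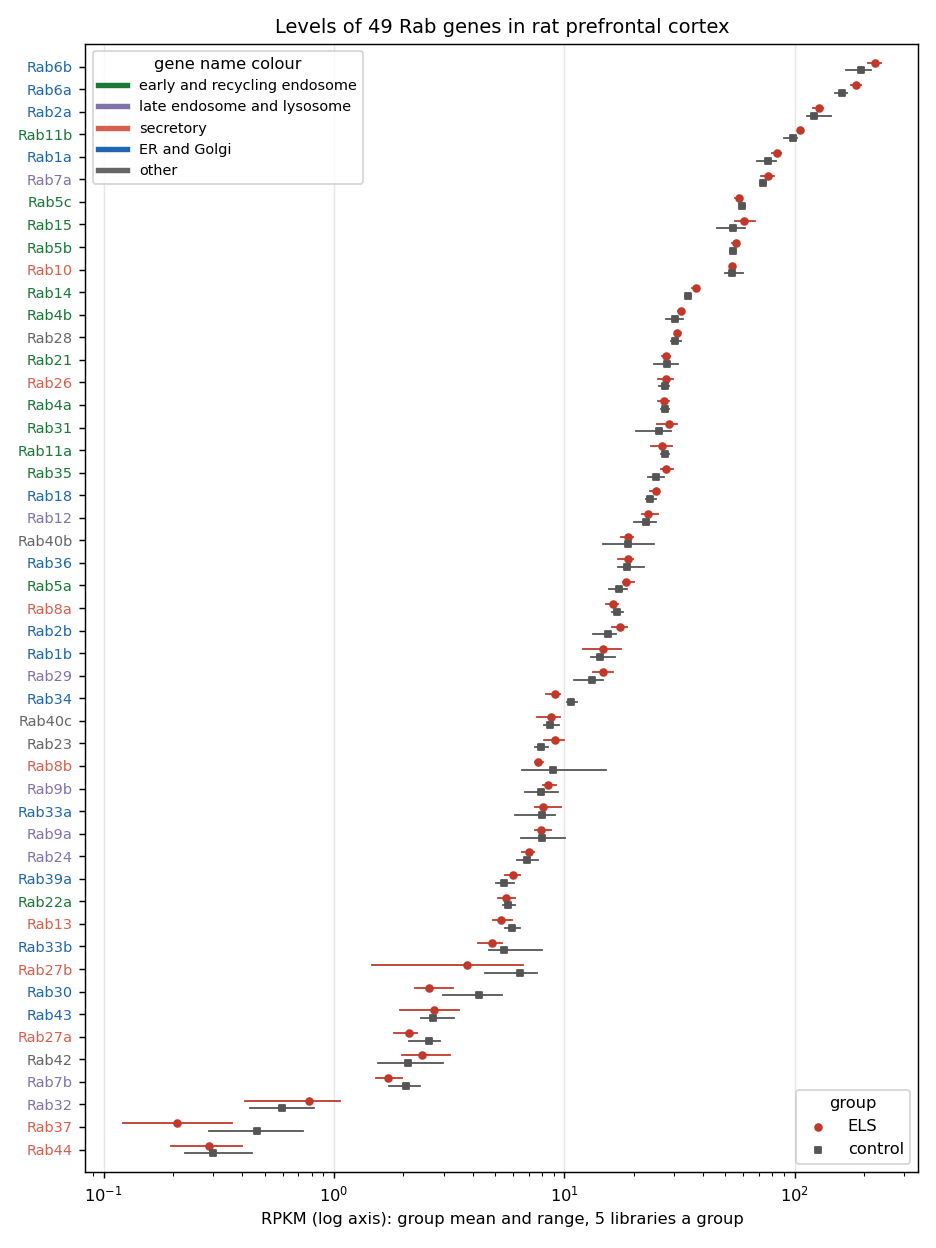
Levels of the 49 Rab genes on a log axis in RPKM, with the mean (point) and range (line) of 5 ELS libraries above those of 5 control libraries. Gene names are coloured by role; Rab6b and Rab6a are highest, and Rab27b (3.77 RPKM in ELS, 6.41 in controls) and Rab30 (2.59 in ELS, 4.26 in controls) are set visibly lower in ELS.

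The 49 members summed to 1508 to 1604 RPKM in ELS and 1448 to 1522 RPKM in control libraries, so the groups overlapped by 1 library on each side. ER and Golgi Rabs made up 45.7% to 47.2% of this sum in ELS and 44.5% to 45.6% in controls. Secretory Rabs made up 7.02% to 7.96% in ELS and 7.95% to 8.98% in controls. Early and recycling endosomal Rabs made up 32.1% to 32.8% in ELS and 32.3% to 33.8% in controls, although their summed level was 495 to 523 RPKM in ELS and 473 to 502 RPKM in controls. Rab6a and Rab6b alone held 25.4% to 26.6% of the sum in ELS and 22.7% to 25.1% in controls.

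No Rab gene differed between ELS and control at an adjusted p under 0.05 with all 10 libraries, and 0 (0%) of all 14642 genes did so. At an unadjusted p under 0.05 there were 14 of the 47 members, or 29.8%, against 20.4% of all genes. Of these, 8 had higher and 6 had lower means in ELS, against 10.1% and 10.3% of all genes. The mean was higher in ELS in 31 of 47 members, against 50.6% of all genes. The groups did not overlap in 4 members, against 5.68% of all genes. In 3 of them, Rab6a, Rab14 and Rab11b, every ELS library lay above every control library, against 3.08% of all genes, and in 1, Rab34, every ELS library lay below, against 2.6%. Without ELS replicate 2, 2 of 47 members passed the adjusted threshold, against 3.03% of all genes. These were Rab6a, higher in ELS as were 0.929% of all genes, and Rab30, lower in ELS as were 2.1%. The same 2 members passed with all libraries under limma-voom with sample quality weights, against 6.45% of all genes (2.4% higher and 4.05% lower). Those weights were estimated from these same data. Control replicate 4 had a weight of 0.171, against 0.858 to 2.31 for the other libraries. By limma-voom without weights 0 genes passed. Without both ELS replicate 2 and control replicate 4, 5 members passed, against 7.62% of all genes. These were Rab6a, Rab6b and Rab2a, higher in ELS as were 3.5% of all genes, and Rab30 and Rab27b, lower in ELS as were 4.12%. The 2 libraries stand out by extreme values in these same data, and leaving them out tends to narrow the spread within groups. The adjusted p-values without them are therefore not calibrated and are given as description. Those with quality weights are likewise given as description. The median log2 fold change of the members was 0.03, and that of all genes was 0.00371.

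By role, counts at an unadjusted p under 0.05 stand beside the 20.4% of all genes. Of 14 ER and Golgi Rabs, 4 had higher and 2 lower means, or 42.9%, with a median log2 fold change of 0.06. Of 13 early and recycling endosomal Rabs, 3 had higher and 0 lower means, or 23.1%, with a median of 0.08. Of 8 late endosomal and lysosomal Rabs, 0 had higher and 1 lower means, or 12.5%, with a median of 0.05. Of the 7 secretory Rabs tested, 0 had higher and 3 lower means, or 42.9%, with a median of -0.15. Without control replicate 4 the median of the secretory Rabs was -0.07, with 3 higher and 4 lower means. In that fit Rab27a, Rab13, Rab2b, Rab1a and Rab7b no longer had an unadjusted limma p under 0.05. Rab2a, Rab39a and Rab4b, all with higher means in ELS, came under 0.05 there. The remaining 5 genes had a median of 0.03, with 1 higher, or 20%. The shares of both endosomal roles lay near or below that of all genes. Differences between the roles were not tested.

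**Figure D2:**
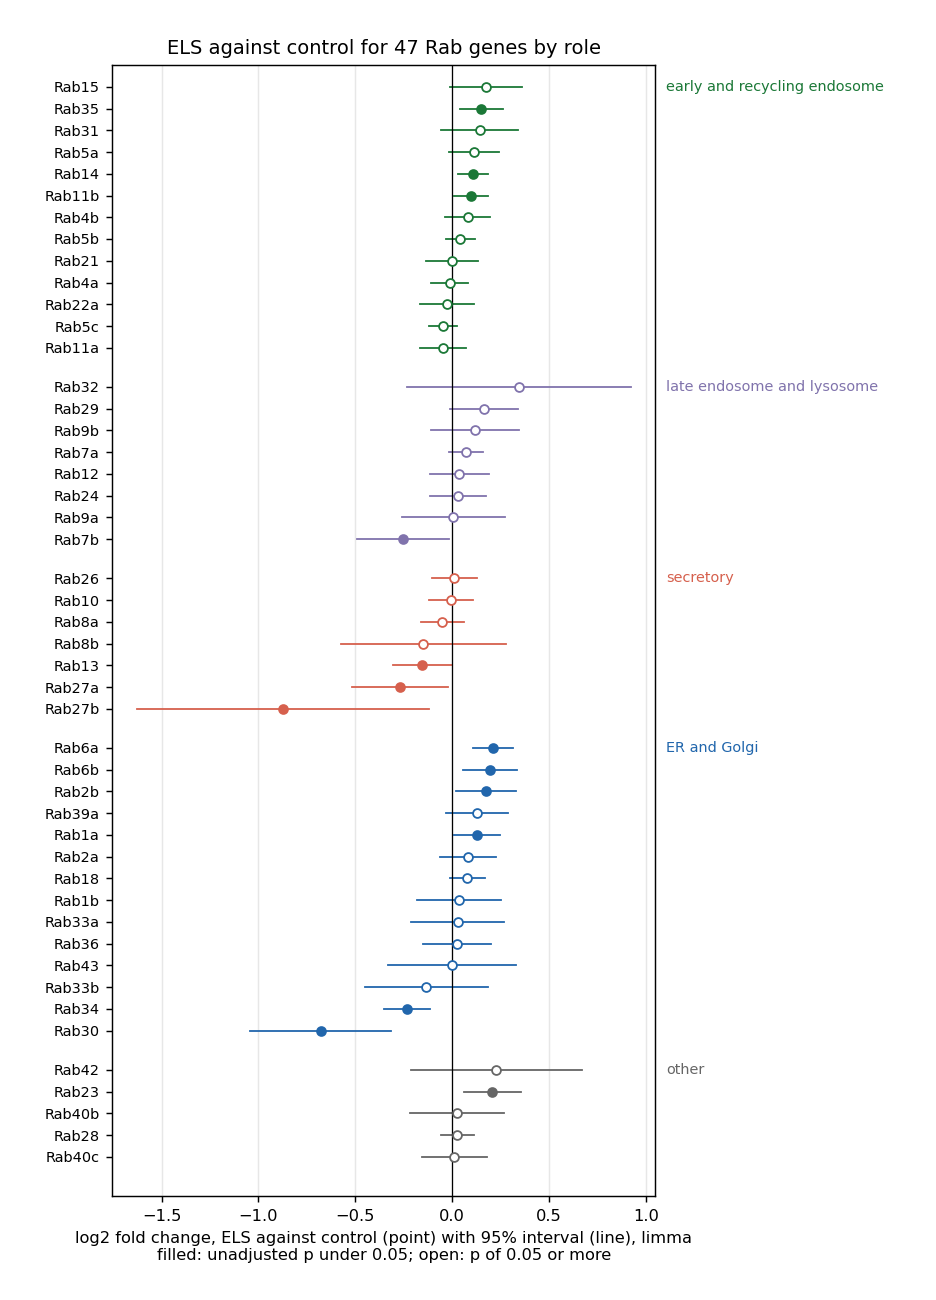
Log2 fold change of ELS against control for the 47 tested Rab genes (points) with 95% intervals (lines, limma on all 10 libraries), ordered within each role. Filled points mark the 14 genes with an unadjusted p under 0.05; the secretory Rabs lie at or below 0.01, whereas Rab6a, Rab6b, Rab2b and Rab1a lie above 0 and Rab34 and Rab30 below.

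Of the ER and Golgi Rabs, 10 of 14 had higher means in ELS, and Rab6a, Rab6b, Rab2b and Rab1a had an unadjusted p under 0.05. Rab6a (ENSRNOG00000018176) was at 177, 175, 190.5, 195 and 189 RPKM in ELS replicates 1 to 5, against 154, 150.3, 165, 164 and 168 RPKM in control replicates 1 to 5. The groups did not overlap. Its log2 fold change was 0.21 ± 0.05 (SE; adjusted p = 0.133), on 10943 to 14238 reads per library. Without ELS replicate 2 it was 0.23 (adjusted p = 0.0399), and without that library and control replicate 4 it was 0.24 (adjusted p = 0.0217). Over the 20 alternative settings the adjusted limma p of Rab6a ran from 0.0217 to 0.294, and it was under 0.05 in 3.

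Rab6b (ENSRNOG00000009198) was at 217, 208, 236, 229.5 and 221 RPKM in ELS, against 197, 195, 199.9, 168 and 214 RPKM in controls. Only ELS replicate 2 lay within the control range, below control replicate 5. The log2 fold change was 0.19 ± 0.06 (adjusted p = 0.156). It was 0.14 without control replicate 4, the lowest library, and 0.16 without both libraries (adjusted p = 0.0431). That was the only 1 of 20 alternative settings with an adjusted limma p under 0.05, and the highest was 0.315. The ratio of Rab6b to Rab6a in RPKM was 1.17 to 1.24 in ELS and 1.02 to 1.30 in controls, so the balance of the isoforms overlapped between the groups.

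Rab2b, a relative of Rab2a on the ER-to-Golgi route, was at 17.3, 16.8, 18.7, 18.5 and 16.1 RPKM in ELS, against 16.7, 15.4, 15.2, 13.3 and 16.7 RPKM in controls. ELS replicate 5 lay among the controls, and the other ELS libraries lay above all of them. The log2 fold change was 0.18 ± 0.07 (adjusted p = 0.200). Rab1a was at 79.6, 80.5, 85.1, 87.5 and 86.2 RPKM in ELS, against 77.0, 77.6, 77.8, 68.6 and 83.3 RPKM in controls. Control replicate 5 overlapped the ELS range, and the log2 fold change was 0.13 ± 0.05 (adjusted p = 0.221).

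Rab2a was at 124, 120.4, 131, 133 and 130.4 RPKM in ELS, against 118, 113, 115, 143 and 116 RPKM in controls. All ELS libraries exceeded 4 of the 5 controls, and control replicate 4 held the highest value of all. Its log2 fold change was 0.08 ± 0.07 with all libraries (adjusted p = 0.498). It was 0.14 without control replicate 4 and 0.17 without both libraries (adjusted p = 0.0236). Omitting both was the only 1 of 20 alternative settings with an adjusted limma p under 0.05, and the highest was 0.676.

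On the other side of this role stood Rab34 and Rab30. Rab34 (ENSRNOG00000023375), which acts at the Golgi and in forming primary cilia, was at 9.55, 9.06, 8.97, 8.33 and 9.62 RPKM in ELS. In controls it was at 11.0, 10.5, 10.5, 11.4 and 10.3 RPKM. Every ELS library was below every control, with a log2 fold change of -0.23 ± 0.05 (adjusted p = 0.133), and over the 20 alternative settings it lay between -0.25 and -0.20.

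Rab30 (ENSRNOG00000010224), a Golgi Rab, was at 2.55, 3.28, 2.42, 2.26 and 2.42 RPKM in ELS, against 5.16, 4.05, 2.99, 3.72 and 5.39 RPKM in controls. Only ELS replicate 2 reached the control range, where control replicate 3 was lowest. The log2 fold change was -0.68 ± 0.16 (adjusted p = 0.133), on 76 to 170 reads. It was -0.77 without ELS replicate 2 (adjusted p = 0.0411). Over the 20 alternative settings the adjusted limma p of Rab30 ran from 0.0257 to 0.294, and it was under 0.05 in 3. The other 7 genes of this role, Rab18, Rab39a, Rab1b, Rab36, Rab33a, Rab33b and Rab43, had log2 fold changes between -0.13 and 0.13. The lowest, that of Rab33b, was 0.01 without control replicate 4.

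To set the sequence upstream of the start beside these values, the 150 bases before the RefSeq transcription start (build GRCr8, 5′ to 3′ on the gene's strand) are shown for the Rab6 pair, which lay higher in ELS, and for Rab34 and Rab27b, which lay lower. Capitals mark matches to the GC box GGGCGG or the CCAAT box CCAAT on either strand. The Rab6a window is chr1:164369883-164370032 (plus strand), that of Rab6b chr8:112574073-112574222 (plus), that of Rab34 chr10:63581392-63581541 (plus) and that of Rab27b chr18:65938584-65938733 (minus).
Rab6a: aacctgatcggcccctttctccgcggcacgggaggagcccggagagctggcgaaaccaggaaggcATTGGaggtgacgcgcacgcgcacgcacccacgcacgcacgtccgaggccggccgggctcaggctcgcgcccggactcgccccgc
Rab6b: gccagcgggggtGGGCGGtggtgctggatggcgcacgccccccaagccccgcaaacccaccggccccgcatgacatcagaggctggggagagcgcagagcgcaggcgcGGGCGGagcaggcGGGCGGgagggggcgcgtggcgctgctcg
Rab34: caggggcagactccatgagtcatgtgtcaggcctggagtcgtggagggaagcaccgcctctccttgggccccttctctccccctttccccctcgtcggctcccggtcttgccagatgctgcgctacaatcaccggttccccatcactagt
Rab27b: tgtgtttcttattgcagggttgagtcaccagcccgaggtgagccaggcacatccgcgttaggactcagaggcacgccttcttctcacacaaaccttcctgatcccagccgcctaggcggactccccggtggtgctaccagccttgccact

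Rab6b held 3 GC boxes and Rab6a 1 CCAAT box in these 150 bases, and neither motif was found for Rab34 or Rab27b. Bases G and C made up 73.3% of the Rab6a window and 78.0% of that of Rab6b, against 62.7% for Rab34 and 59.3% for Rab27b. These genes were picked, and the windows of other members, such as Rab30, Rab14 and Rab11b, are not shown. The contrast therefore does not describe higher and lower members in general. Over 250 bases before the start, 40 windows of 39 members could be read. The members without a window were Rab1b, Rab2a, Rab2b, Rab22a, Rab23, Rab24, Rab26, Rab33a, Rab36 and Rab37. The GC box lay in 32 of the 40 windows, or 80%, against 56.1% of the 11641 windows of genes in the deposited table. The CCAAT box lay in 35.0%, against 34.3%, and the E-box CACGTG in 7.50%, against 7.82%. The cyclic AMP response element TGACGTCA was found in 0 member windows, against 2.65% of the windows of table genes, and the palindromic glucocorticoid response element in 0 of either. Both strands were read and none of these motifs contains another. A match describes letters only.

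Secretory Rabs move carriers from the Golgi to the plasma membrane and dock secretory granules there. Rab27b (ENSRNOG00000012176), which docks granules and exosome-bearing compartments at the membrane, was at 4.44, 6.62, 1.46, 2.93 and 3.41 RPKM in ELS, against 7.53, 7.29, 5.07, 4.51 and 7.63 RPKM in controls. ELS replicate 2 lay within the control range and the other ELS libraries below all controls. Its log2 fold change was -0.87 ± 0.34 (adjusted p = 0.196), on 39 to 214 reads, the largest change in either direction among the 47 members with all libraries. Without ELS replicate 2 it was -1.11 (adjusted p = 0.0782), and without that library and control replicate 4 it was -1.23 (adjusted p = 0.0474). Without ELS replicate 3, the lowest library, it was -0.58 (adjusted p = 0.321), a smaller change than that of Rab30 there (-0.66).

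Rab27a, the close relative that is best known from melanosomes and cytotoxic granules, was at 1.83, 2.30, 2.10, 2.03 and 2.30 RPKM in ELS, against 2.29, 2.80, 2.90, 2.76 and 2.13 RPKM in controls. The groups overlapped through control replicates 1 and 5, and the log2 fold change was -0.27 ± 0.11 (adjusted p = 0.215). The Rab27b to Rab27a ratio ran from 0.693 to 2.87 in ELS and from 1.63 to 3.59 in controls. Rab13, which delivers proteins to cell junctions, was at 5.93, 5.03, 4.90, 5.49 and 5.20 RPKM in ELS, against 5.51, 6.43, 5.82, 5.89 and 5.96 RPKM in controls. ELS replicate 1 lay among the controls, and the log2 fold change was -0.15 ± 0.07 (adjusted p = 0.235). The unadjusted limma p of Rab13 was 0.0586 without control replicate 4 and 0.0939 without ELS replicate 2.

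The more abundant secretory Rabs lay near their control levels. Rab10, which serves surface delivery and dense-core vesicle release, was at 52.3, 52.7, 53.3, 54.2 and 53.8 RPKM in ELS, against 50.4, 52.2, 49.9, 59.6 and 55.8 RPKM in controls, and the ELS values lay inside the control range. Its log2 fold change was -0.01, with a 95% interval of -0.12 to 0.11. Rab26, a Rab of secretory granules and synaptic vesicles, was at 29.1, 29.7, 27.6, 25.9 and 25.7 RPKM in ELS, against 27.3, 25.9, 28.6, 26.6 and 28.4 RPKM in controls. The groups overlapped, and its 95% interval was -0.11 to 0.13. Rab8a, which acts between Golgi and surface, had a log2 fold change of -0.05 ± 0.05. Its relative Rab8b was at 7.44 to 8.07 RPKM in ELS and 6.53 to 8.36 RPKM in control replicates 1, 2, 3 and 5, but at 15.2 RPKM in control replicate 4. For Rab8b the log2 fold change was -0.15 ± 0.19, and 0.06 without that library.

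Of the Rabs of early and recycling endosomes, 3 had an unadjusted p under 0.05, all with higher means in ELS. Rab14 (ENSRNOG00000018901), which acts between Golgi and endosomes, was at 36.0, 36.8, 38.0, 38.1 and 37.0 RPKM in ELS, against 35.1, 34.7, 33.9, 33.3 and 35.5 RPKM in controls. The groups did not overlap, although the log2 fold change was 0.11 ± 0.03 (adjusted p = 0.151). Rab35, which drives fast recycling to the surface, was at 27.9, 26.3, 29.5, 28.3 and 26.6 RPKM in ELS, against 24.5, 25.2, 25.0, 23.2 and 27.2 RPKM in controls. Control replicate 5 overlapped with 2 ELS libraries, and the log2 fold change was 0.15 ± 0.05 (adjusted p = 0.162).

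Rab11b was at 105, 103, 105, 107 and 108 RPKM in ELS, against 101, 99.2, 100.2, 90.4 and 102 RPKM in controls. The groups did not overlap, and control replicate 4 was lowest. The log2 fold change was 0.10 ± 0.04 (adjusted p = 0.213), and 0.07 without that control. Its paralogue Rab11a, also of the recycling endosome, had a log2 fold change of -0.05 ± 0.05 and levels of 23.9 to 29.5 RPKM in ELS and 26.2 to 28.5 RPKM in controls.

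None of the 3 Rab5 genes, which organise the early endosome, had an unadjusted p under 0.05. Rab5c was at 58.3, 55.0, 58.9, 57.8 and 56.7 RPKM in ELS, against 58.0, 61.2, 59.1, 59.6 and 58.4 RPKM in controls, with overlapping groups. The 95% interval of its log2 fold change was -0.12 to 0.03. Rab5b averaged 55.6 ± 1.39 RPKM in ELS and 54.0 ± 1.28 RPKM in controls, and Rab5a 18.6 ± 0.898 RPKM in ELS and 17.2 ± 1.31 RPKM in controls (SD, n = 5 each). For Rab5a the log2 fold change was 0.11 ± 0.06, of the size seen in Rab14. The recycling genes Rab4a and Rab4b had log2 fold changes of -0.01 ± 0.04 and 0.08 ± 0.05. Rab15, a Rab of neuronal endosomes, averaged 60.6 ± 4.51 RPKM in ELS and 53.9 ± 6.60 RPKM in controls, with overlapping groups. The remaining genes of this role, Rab21, Rab22a and Rab31, had log2 fold changes between -0.03 and 0.14. The highest, that of Rab31, was 0.06 without control replicate 4.

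Late endosomal and lysosomal Rabs showed 1 gene with an unadjusted p under 0.05. Rab7b, which acts between late endosomes and the Golgi, was at 1.62, 1.71, 1.52, 1.97 and 1.76 RPKM in ELS, against 1.74, 2.14, 2.11, 2.36 and 1.97 RPKM in controls. The groups overlapped, and the log2 fold change was -0.25 ± 0.11 (adjusted p = 0.224), on 79 to 136 reads. Its unadjusted limma p was 0.0865 without control replicate 4 and 0.0610 without ELS replicate 2. Rab7a, the main Rab of late endosomes and lysosomes, was at 77.3, 71.7, 75.5, 81.4 and 76.7 RPKM in ELS, against 72.0, 71.9, 70.9, 73.3 and 75.5 RPKM in controls. ELS replicate 2 was the lowest of its group and lay among the controls. The log2 fold change was 0.07 ± 0.04 (adjusted p = 0.328), and 0.10 without that library.

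Rab12, which sends receptors to lysosomes, was at 25.6, 23.3, 22.2, 23.2 and 21.7 RPKM in ELS, against 24.2, 25.1, 22.3, 20.1 and 21.6 RPKM in controls, with overlapping groups. Rab29, which recruits the Parkinson's disease kinase LRRK2, averaged 14.7 ± 1.03 RPKM in ELS and 13.2 ± 1.40 RPKM in controls (SD, n = 5 each). Its log2 fold change was 0.16 ± 0.08 (adjusted p = 0.275), and 0.10 without control replicate 4. The other genes of this role, Rab9a, Rab9b, Rab24 and Rab32, had log2 fold changes between 0.01 and 0.34. Rab32 set the upper end, at 0.410 to 1.06 RPKM in ELS and 0.430 to 0.818 RPKM in controls.

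Outside these roles, Rab23, a regulator of Hedgehog signalling in mammals, was at 9.80, 8.18, 9.99, 9.25 and 8.58 RPKM in ELS, against 7.73, 8.51, 7.95, 7.48 and 7.89 RPKM in controls. Only ELS replicate 2 lay among the controls. The log2 fold change was 0.21 ± 0.07 (adjusted p = 0.151), and 0.25 without that library (adjusted p = 0.0670). Rab28, a Rab of cilia and photoreceptors, was at 30.4, 31.0, 32.1, 30.5 and 30.7 RPKM in ELS, against 30.1, 29.0, 30.0, 32.2 and 30.7 RPKM in controls. Rab40b, which carries a ubiquitin ligase adaptor domain, was at 18.2, 17.6, 19.4, 19.8 and 19.9 RPKM in ELS, against 19.0, 17.9, 18.3, 24.4 and 14.7 RPKM in controls. Both overlapped between the groups. Rab40c and Rab42 had log2 fold changes of 0.01 ± 0.07 and 0.23 ± 0.20.

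**Figure D3:**
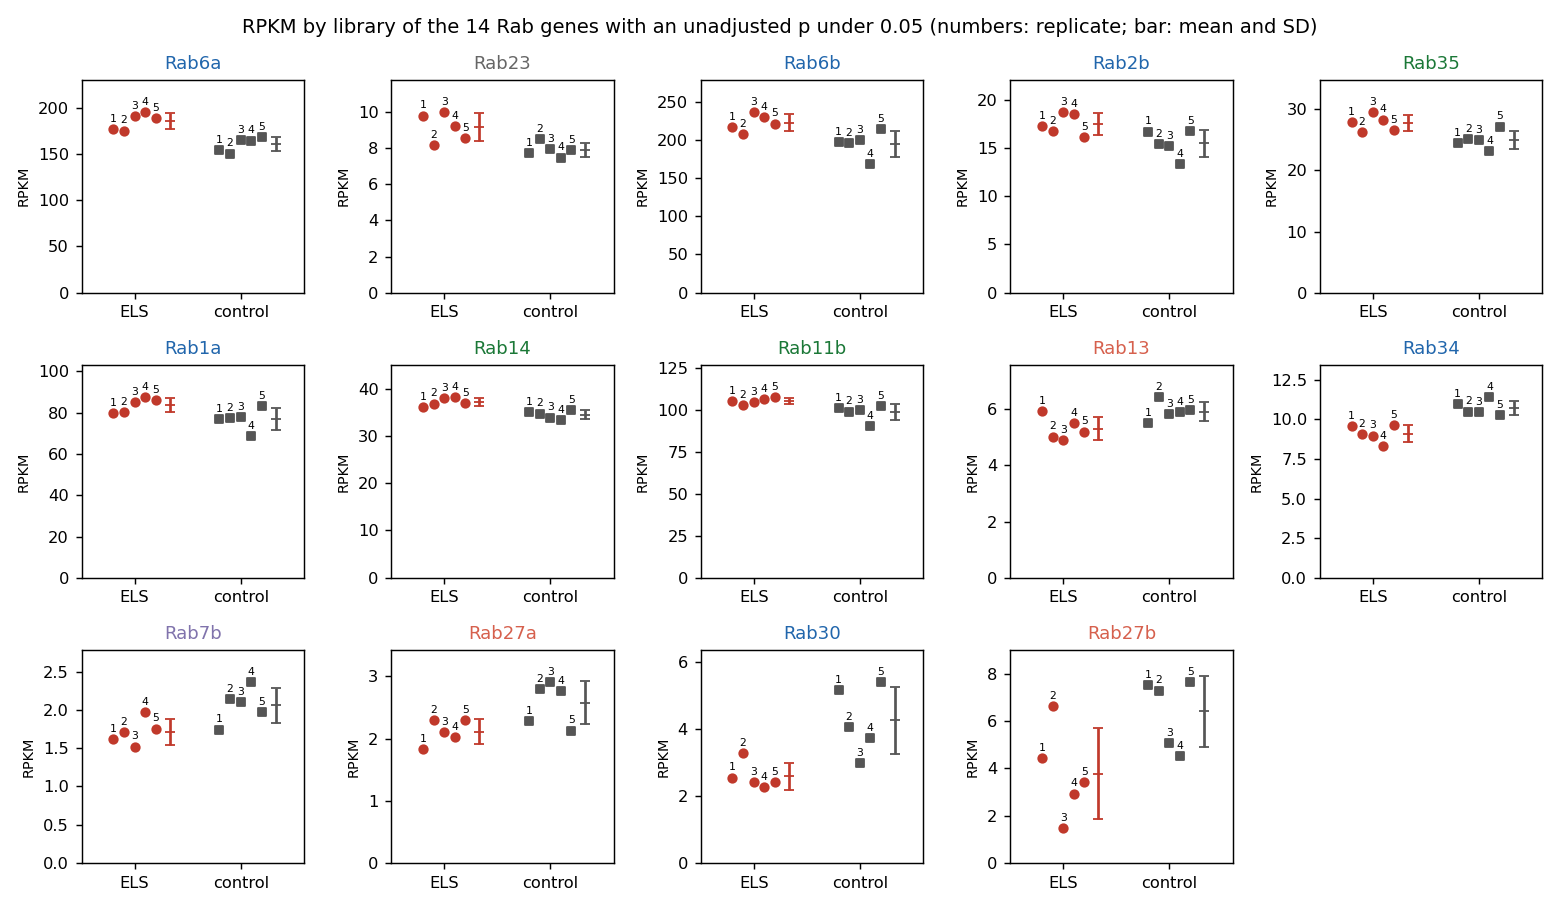
RPKM of the 14 Rab genes with an unadjusted p under 0.05 in each library, ELS left and control right, with replicate numbers at the points and the mean with SD as a bar. ELS replicate 2 lies within or next to the control range in Rab6b, Rab23, Rab27b and Rab30, and Rab6a, Rab14, Rab11b and Rab34 do not overlap between the groups.

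**Figure D4:**
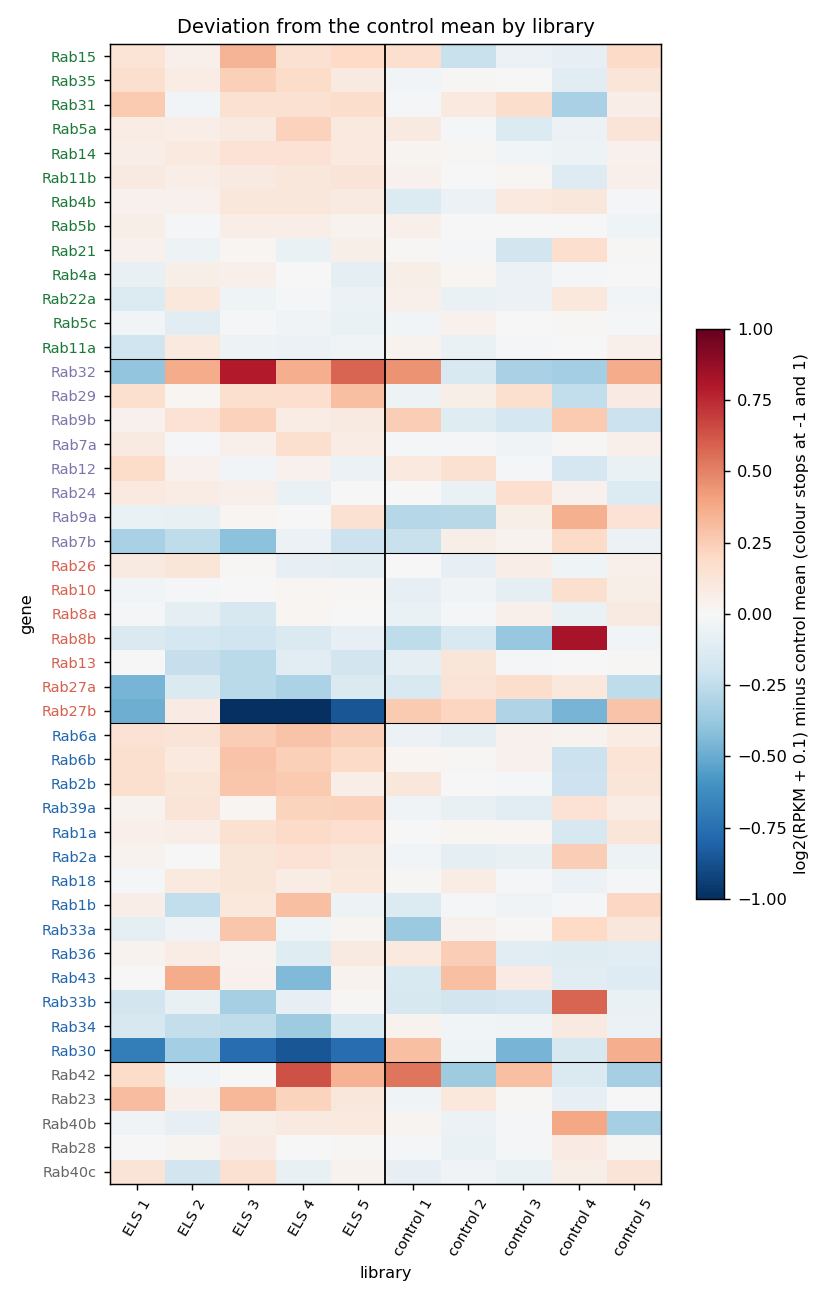
Log2(RPKM + 0.1) of the 47 tested Rab genes in each library minus the control mean, with libraries in columns (ELS left of control) and genes in rows by role, colours ending at -1 and 1. Rab27b and Rab30 are low in ELS replicates 1, 3, 4 and 5, whereas Rab8b and Rab33b stand out as high in control replicate 4.

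Among the 14 members at an unadjusted p under 0.05, levels were as follows. Rab7b, Rab27a, Rab30, Rab13, Rab27b and Rab34, the 6 lower members, had control means of 2.06 to 10.7 RPKM. The 8 higher ones had control means from 7.91 RPKM in Rab23 to 195 RPKM in Rab6b. This was noticed in the values and was not tested, and among the other members abundant genes such as Rab5c (control mean 59.2 RPKM) also had lower means in ELS.

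The proteins that load, unload and follow Rabs were read from 4 lists with 126 rows, of which 124 were tested. In all, 22 had higher and 12 lower means in ELS at an unadjusted p under 0.05, or 27.4% against 20.4% of all genes, and 0 passed the adjusted threshold. Of the 6 genes of the core Rab cycle, all had higher means, against 50.6% of all genes. This list includes genes of lipid anchoring and membrane extraction. Their log2 fold changes lay between 0.05 and 0.12, and 2 (33.3%) had an unadjusted limma p under 0.05. Rabggta, a subunit of the enzyme that attaches the lipid, was at 15.1 to 17.2 RPKM in ELS and 14.3 to 15.7 RPKM in controls (adjusted p = 0.226).

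Of 37 GEF rows, 4 had higher and 3 lower means at an unadjusted p under 0.05, or 18.9%, below the 20.4% of all genes. Madd, an exchange factor for Rab3 and Rab27, was at 35.7, 33.8, 37.2, 39.3 and 36.2 RPKM in ELS, against 32.7, 31.5, 29.8, 29.1 and 32.1 RPKM in controls. All ELS libraries lay above all controls, with a log2 fold change of 0.23 ± 0.05 (adjusted p = 0.133). Dennd4c, an exchange factor for Rab10, was at 1.75, 2.55, 1.40, 1.40 and 1.67 RPKM in ELS, against 2.87, 2.90, 2.43, 2.78 and 2.90 RPKM in controls. Only ELS replicate 2 reached the control range, and the log2 fold change was -0.67 ± 0.15 (adjusted p = 0.133). Without that library the adjusted p was 0.0317 for Madd and 0.0133 for Dennd4c. Sbf2, next in p in this list, had a log2 fold change of -0.21 ± 0.07 (adjusted p = 0.149).

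Of 31 GAP rows, 5 had higher and 1 lower means at that p, or 19.4%, also near the share of all genes. Tbc1d30 was at 14.6, 11.7, 15.3, 14.9 and 13.4 RPKM in ELS, against 10.1, 10.3, 10.4, 9.09 and 13.1 RPKM in controls, with ELS replicate 2 below control replicate 5. Its log2 fold change was 0.40 ± 0.10 (adjusted p = 0.133). Sgsm3 and Sgsm1, which share the GAP domain and bind small GTPases, had log2 fold changes of 0.21 ± 0.07 and 0.18 ± 0.06.

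Of 50 effector rows, 11 had higher and 8 lower means, or 38.0% at an unadjusted p under 0.05, against 20.4% of all genes. Vps41 and Vps39 belong to the HOPS tether that works with Rab7 at lysosomes. Vps41 was at 67.7, 69.9, 73.8, 75.9 and 74.9 RPKM in ELS, against 64.5, 57.3, 57.7, 58.0 and 66.0 RPKM in controls (log2 fold change 0.26 ± 0.05, adjusted p = 0.133). Vps39 was at 21.6 to 24.8 RPKM in ELS and 19.3 to 21.1 RPKM in controls (0.18 ± 0.05, adjusted p = 0.133). In both genes all ELS libraries lay above all controls. Sytl2, a Rab27 effector, had 2 rows in the table, between which reads may be split. In 1 of them (ENSRNOG00000030776) it averaged 1.82 ± 0.519 RPKM in ELS and 1.0 ± 0.155 RPKM in controls (SD, n = 5 each), a log2 fold change of 0.76 ± 0.22 (adjusted p = 0.135), and in the other the log2 fold change was 0.01.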

How the data were processed

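RNA was sequenced from 10 prefrontal cortex samples with a stranded mRNA kit, per the labels' protocols. Alignment with STAR and counting with featureCounts, on build rn6, are named per the submitters' processing notes. The sources used here do not give the annotation release, strand setting or gene filter. Without the strand setting, reads of overlapping genes could be shared. Reads of near-identical Rab paralogues could be shared whatever the strand setting. The authors deposited RPKM-type values (RPKM or FPKM is not stated) for 16041 rows. Their steps gave back whole reads, within 0.002 reads, for 16015 rows, 100% of those above 0.

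Values were tested on the log2(RPKM + 0.1) scale, keeping genes that reached 0.5 RPKM in 5 libraries, by limma (version 3.58.1, R 4.3.3; trend, robust, two-sided, Benjamini-Hochberg adjustment, threshold 0.05). The procedure was tested on simulated data. Alternatives changed the pseudocount, filter, scaling, replicate block, test (limma-voom on recovered reads) and libraries. Members, roles, lists and alternatives were chosen with earlier results of these data known. Named in full were members with an unadjusted p under 0.05, members past the adjusted threshold under any alternative, the 2 most abundant per role, and the 3 list genes of lowest p, of which 1 is not reported here. Promoter sequences are from RefSeq, build GRCr8, matched by symbol, a build other than that of the deposited table.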

Additional observations from a re-analysis of the deposited data

Results flagged for a closer look

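In 98 groups of 5 libraries (49 genes, 2 groups each), 7 had a highest or lowest library whose gap to the nearest other exceeded 0.71 of the group's range, and chance flags about 1 in 20 groups. Control replicate 4 accounted for 4 of them. In that library Rab8b was at 15.2 RPKM, against 6.53 to 8.36 RPKM in the other controls, and Rab33b, a Golgi and autophagy Rab, at 8.03 RPKM, against 4.69 to 5.09 RPKM. Rab2a was at 143 RPKM there, against 113 to 118 RPKM in the other controls, and Rab11b at 90.4 RPKM, against 99.2 to 102 RPKM.

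In ELS replicate 2, Rab30 was at 3.28 RPKM, against 2.26 to 2.55 RPKM in the other ELS libraries. In ELS replicate 4, Rab5a was at 20.1 RPKM, against 18.0 to 18.4 RPKM in the other ELS libraries, and Rab36, a Golgi Rab, at 17.1 RPKM, against 19.0 to 19.8 RPKM.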

How the results depend on the processing

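With all 10 libraries, 0 genes passed under every change of pseudocount, filter and scaling, under the replicate block and by limma-voom without weights. Limma-voom with sample quality weights called 944 genes, 2 of them Rab members, and omitting both ELS replicate 2 and control replicate 4 called 1116 and 5; leaving out 1 library called 0 to 444 and 0 to 2. Same-numbered libraries did not deviate together from their group means (correlations of -0.0817 to 0.0658). Whether they shared a litter or batch was not tested. With the replicate block 9 members had an unadjusted p under 0.05, against 14 without it. Leaving out 1 library gave 8 to 15, with 8 when either ELS replicate 3 or ELS replicate 4 was omitted and 9 when control replicate 2 was.

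The members' median log2 fold change of 0.0319 was 0.0133 with upper quartile scaling, 0.0734 without both libraries, and 0.0196 (ELS replicate 3) to 0.0572 (control replicate 4) leaving out 1. Without both libraries, the medians were 0.107 (late endosomal), 0.0965 (ER and Golgi), 0.151 (other) and -0.0559 (secretory); with quality weights they were 0.0960 (late endosomal), 0.0973 (other) and -0.0432 (secretory). Leaving out 1 library gave 0.0543 to 0.0902 for early and recycling, 0.0454 to 0.0848 for late endosomal, 0.0428 to 0.0874 for ER and Golgi, 0.0121 to 0.124 for other and -0.180 to -0.0680 for secretory Rabs. Leaving out control replicate 4 gave the highest of these for late endosomal, other and secretory Rabs. The cause of these shifts was not tested.

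All 14 members at an unadjusted p under 0.05 kept their direction in every alternative that tested them. Of the members given by library, those that reversed were near 0 in log2 fold change. With quality weights Rab12 was at -0.0326, Rab26 at -0.0152 and Rab10 at 0.0276; without both libraries they were at -0.00848, -0.0267 and 0.0372; with upper quartile scaling Rab26 was at -0.00831. Leaving out 1 library gave -0.00629 to 0.0740 for Rab12, -0.0571 to 0.124 for Rab40b, -0.0168 to 0.0362 for Rab26 and -0.0307 to 0.0333 for Rab10. Rab37 and Rab44, on 20 reads or fewer per library, were not tested.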

Other observations

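Several effectors of the Rabs described above, named after their values were seen, were low in 4 ELS libraries and within the control range in ELS replicate 2, the order seen in Rab27b and Rab30. Eea1, the early endosome tether bound by Rab5, was at 4.17, 7.49, 2.53, 3.75 and 3.40 RPKM in ELS replicates 1 to 5, against 8.44, 7.17, 5.74, 5.50 and 9.29 RPKM in control replicates 1 to 5. Bicd1, a Rab6 effector that links carriers to dynein, was at 1.45, 3.44, 0.721, 1.04 and 1.30 RPKM in ELS, against 3.39, 3.19, 2.24, 2.60 and 3.79 RPKM in controls. Myo5a, a myosin motor that works with Rab27 and Rab11, was at 18.2, 44.3, 10.6, 13.8 and 15.6 RPKM in ELS, against 46.0, 40.3, 25.4, 20.4 and 45.8 RPKM in controls. By limma with all libraries their adjusted p was 0.151, 0.151 and 0.213, and since they were chosen by this pattern no test of it is given. How many other effectors, or genes of any kind, share the pattern was not counted. ELS replicate 2 held the highest or lowest value of its group in 51.3% of all genes tested.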
